A study of Mus musculus with 6 samples.

Results

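The genes described here are 56 genes spread along mouse chromosome 3, of which 55 were measured among 18193 genes in all, in N-myc-driven mouse leukaemias with and without Cdh1, all labelled as B-cell leukaemias. They were chosen by the chromosome's own values on these 6 arrays, since its transcripts had already been seen to differ between the leukaemias. Thus the differences between the groups below are a description and carry no test. Each gene is represented by the probe set with a single gene symbol and the highest mean over the 6 arrays, and Ash1l, the remaining gene of the list, was not analysed here. All 55 measured genes were placed on chromosome 3 by the RefSeq gene table.

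The arrays came from 3 Cdh1-intact and 3 Cdh1-deficient leukaemias, 1 mouse per array. Cdh1 here is the product of Fzr1, a coactivator that directs the anaphase-promoting complex, a ubiquitin ligase, to its substrates late in mitosis and in G1. Both groups of C57BL/6 donors carried the conditional gene-trap allele on both copies (Cdh1f/f). The Cdh1-deficient donors carried Mx1-Cre, a Cre recombinase under an interferon-inducible promoter that is active in blood cells and in several other tissues, and the Cdh1-intact littermates did not. Donors of both groups received pIpC, the inducer of that promoter, at 7 to 8 weeks of age. Their marrow was taken 4 weeks after the last injection, 2 days after 5-fluorouracil at 150 mg/kg, and the N-myc cDNA was carried by the retroviral vector pMXs-IG. RNA came from GFP-positive marrow mononuclear cells sorted from moribund mice. The labels do not say how many clones made up a leukaemia. Values below are given in the order of arrays 1, 2 and 3 of a group.

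A chromosome carries genes of unrelated function whose transcripts are made from the same number of DNA copies. When a mammalian cell gains or loses a whole autosome, the transcripts of most of its genes tend to shift together, since autosomes have no general dosage compensation. Leukaemia cells often carry such gains and losses. DNA copy number was not measured here. As a yardstick, output in proportion to 3 copies in place of 2 would lie 0.58 higher on the log2 scale of these arrays if every cell carried the gain. The part of copy number in the values below was not tested.

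The markers of Cdh1-intact array 2 went against its B-cell label. The B-lineage genes Cd79a, Cd79b and Ms4a1 lay at 4.86, 4.35 and 3.97 there, where every other array had 8.68 to 12.47. The B-lineage genes Igll1 (6.63) and Rag1 (3.30) lay within the range of the other arrays. Its T and NK cell genes Cd3d, Cd3g and Gzma lay at 12.55, 12.48 and 12.39, while Cd8a (5.27), Klrd1 (2.86) and Prf1 (5.25) were not raised. On Cdh1-intact array 3 Cd3d, Cd3g and Gzma lay at 8.69, 7.95 and 8.33, beside a B-lineage level like that of the remaining arrays. Nkg7 and Il2rb lay at 5.50 and 4.37 there, against 4.63 to 5.15 and 4.20 to 4.36 on the arrays other than Cdh1-intact array 2. On Cdh1-intact array 2 the mean log2 level of 9 measured B-lineage genes was 4.67, against 7.83 to 8.75 on the others, and that of 10 T and NK cell genes was 9.13, against 4.70 to 6.43. The mean of 9 neutrophil genes was 6.16 on that array and 9.46 to 11.61 elsewhere, highest on Cdh1-deficient array 2. In bulk RNA such as this, fewer cells of a type and less RNA per cell cannot be told apart. Fzr1 lay at 8.92, 8.04 and 8.92 in the Cdh1-intact leukaemias and 8.10, 7.73 and 8.22 in the Cdh1-deficient ones, an overlap that comes from Cdh1-intact array 2. The position of its probes relative to the gene trap is unknown here, so these values settle no label. The part of these lineage transcripts in the chromosome 3 values was not tested as such, and the value without Cdh1-intact array 2 is given beside each of the 21 members whose difference it moved by over 1.5 times.

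Chromosome 3 as a whole stood higher on each Cdh1-deficient array than on each Cdh1-intact array. For each gene the median of its 6 values was subtracted, and the median of these deviations was taken over the 446 chromosome 3 genes whose mean level reached the median over all genes. It was -0.12, -0.18 and -0.08 for Cdh1-intact arrays 1, 2 and 3, against 0.03, 0.17 and 0.17 for Cdh1-deficient arrays 1, 2 and 3. Cdh1-deficient array 1 thus lay between the other Cdh1-deficient arrays and the Cdh1-intact arrays. The median difference between the groups was 0.31 over these 446 genes, and 85.9% of them had a higher mean in Cdh1-deficient cells. Without Cdh1-intact array 2, left out for these genes after its markers were seen, the values were 0.28 and 84.1%, against 0.07 and 61.3% over all genes at that level. Chromosome 5 had a larger median difference, 0.36, with 87.0% of its genes higher. It was 0.20 on chromosome 4, 0.16 on 19, 0.14 on 12 and -0.03 on 13. Chromosomes 3, 4, 5, 12, 13 and 19 were set aside after their values were seen. Over the other 14 the same deviations ran from -0.11 to 0.06 and the median differences from 0.01 to 0.10. These deviations ran from -0.111 to -0.032 on Cdh1-intact array 1 and from -0.014 to 0.028 on Cdh1-deficient array 1. Chromosome 3, at -0.119 and 0.032, lay close to the ends of those ranges.

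**Figure D1:**
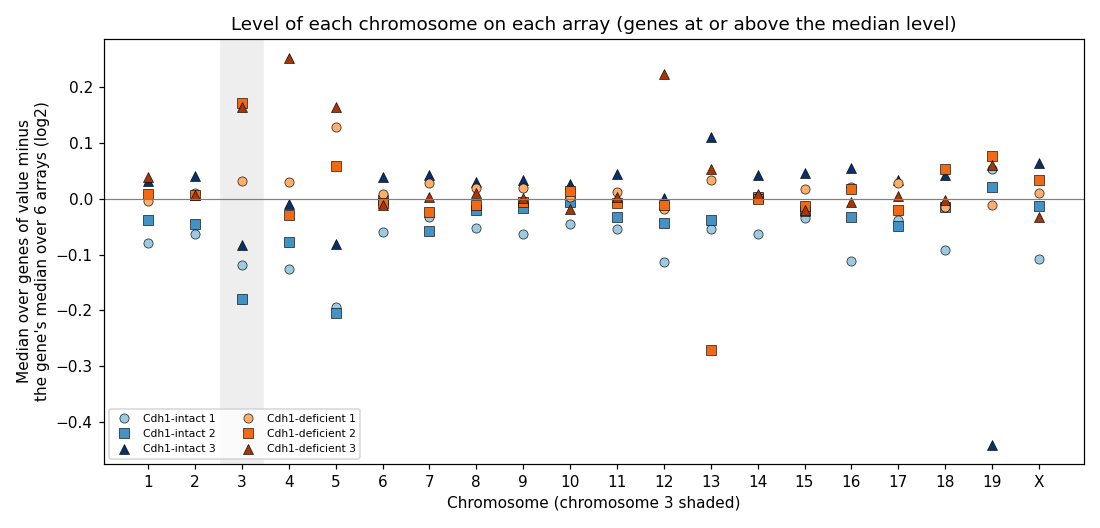
Level of each chromosome on each array, as the median over its genes of the log2 value minus the gene's median over the 6 arrays, for genes at or above the median level (blue, Cdh1-intact; orange, Cdh1-deficient; circle, square and triangle are arrays 1, 2 and 3). On chromosome 3 the 3 Cdh1-deficient arrays (0.03, 0.17 and 0.17) lay above the 3 Cdh1-intact arrays (-0.18 to -0.08).

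Among the listed genes 48 of 55 had a higher mean in Cdh1-deficient cells and 7 a lower one, where 50.9% of all genes had a higher mean, and 62.5% of those at or above the median level, which 54 of the 55 reached. The median difference was 0.29 on the log2 scale, against 0.00 over all genes tested (0.09 over those at or above the median level). For 22 of the 55 all 3 Cdh1-deficient arrays lay above all 3 Cdh1-intact arrays, beside 6.65% of all genes and 9.88% of those at or above the median level. For 0 they all lay below, beside 5.09% and 4.03%. Since the list was drawn up with these differences known, nothing is read from these shares. After adjustment in limma 0 of 18193 genes passed the threshold of 0.05 (0%), and the members' adjusted p ran from 0.849 to 0.952. At an unadjusted limma p under 0.05 there were 1000 genes in all, and 15 members, all of them higher, beside 4.01% of all genes called higher that way and 1.49% called lower. Without Cdh1-intact array 2 the median was 0.29 and 51 of 55 were higher, and without Cdh1-deficient array 1 the median was 0.38.

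Within the Cdh1-deficient group the arrays were not alike. Array 1 lay above all 3 Cdh1-intact arrays for 28 of the 55 genes (23.7% of all genes), array 2 for 38 (22.1%) and array 3 for 39 (23.3%). On the remaining chromosomes, for genes at or above the median level, the shares were 24.4%, 27.3% and 29.8%. These counts share the Cdh1-intact arrays. From array 1 to array 2 the members differed by a median of 0.19, and the 392 other chromosome 3 genes at or above the median level by 0.16, against -0.04 on the remaining chromosomes. From array 2 to array 3 the members differed by -0.02. Array 1 in turn lay above Cdh1-intact array 1 by a median of 0.13 over the members and 0.17 over the other chromosome 3 genes, but also by 0.11 on the remaining chromosomes. Above Cdh1-intact array 2 it lay by 0.32 and 0.27, against 0.09, and above Cdh1-intact array 3 by 0.14 and 0.16, against -0.01. So for array 1 the distance beyond the remaining chromosomes was small against Cdh1-intact array 1. For 11 members arrays 2 and 3 lay above all Cdh1-intact arrays and array 1 did not: Clk2, Adar, Fxr1, Phc3, Trim33, Arhgef2, Capza1, Kpna4, Sort1, Gmps and Ube2d3. The highest of the 6 values was on Cdh1-deficient array 2 for 23 members, on array 3 for 15 and on array 1 for 9. Of all genes at or above the median level 19.3%, 18.1% and 11.7% had their highest value there. The lowest was on Cdh1-intact array 2 for 23, on array 1 for 15 and on array 3 for 9, beside 30.2%, 28.8% and 10.2%. In both cases the member shares were 41.8%, 27.3% and 16.4%, so that of Cdh1-intact array 1 was near the share over those genes.

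**Figure D2:**
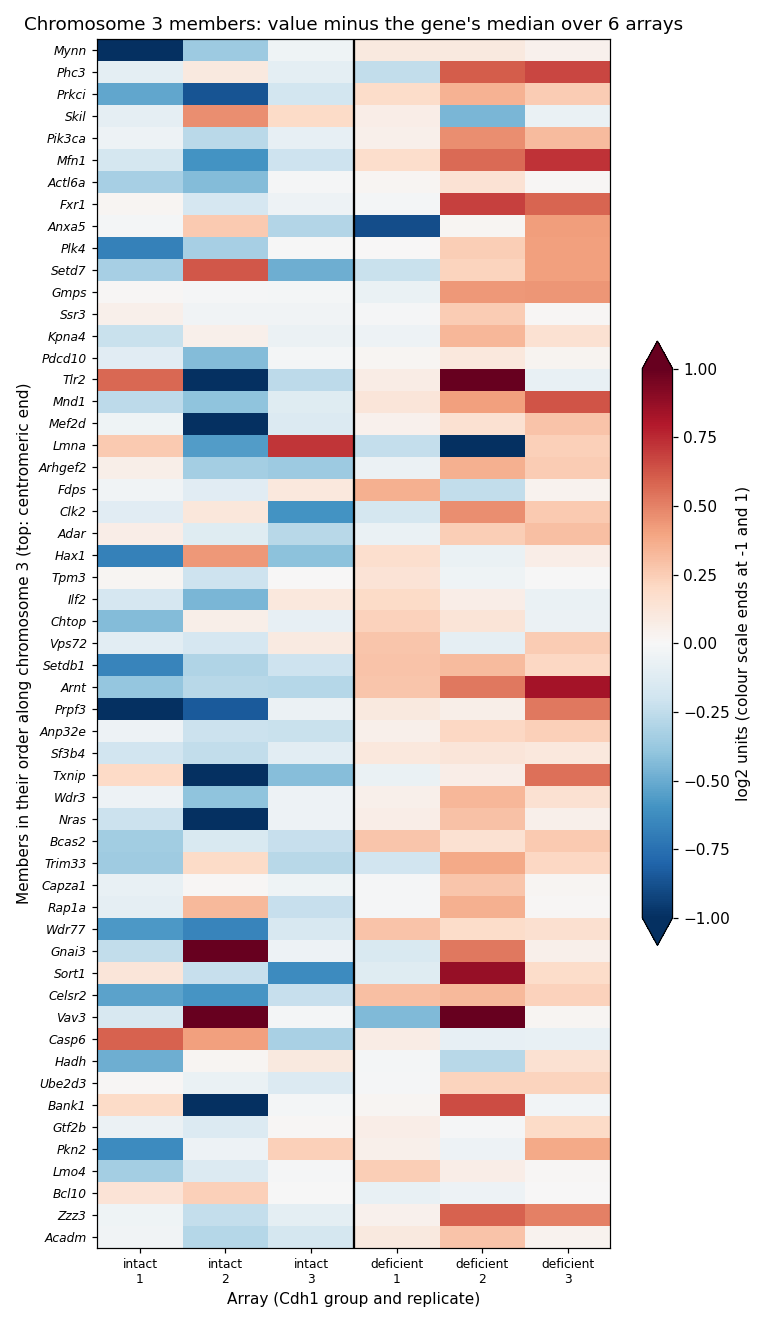
Each of the 55 members (rows, in gene order along chromosome 3) on each array (columns), coloured by the log2 value minus the gene's median over the 6 arrays. Red cells prevail on Cdh1-deficient arrays 2 and 3 and blue cells on the Cdh1-intact arrays, with single rows such as Lmna, Gnai3 and Vav3 running otherwise.

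Genes of RNA processing all had higher means, 10 of 10, with a median difference of 0.36, and in 5 the groups did not overlap. Of all genes at or above the median level 62.5% had higher means, and 9.88% had groups without overlap in that direction. As for the whole list, nothing is read from the counts by role. Prpf3, a splicing factor of the tri-snRNP, lay at 8.39, 8.57 and 9.35 in the Cdh1-intact leukaemias and 9.51, 9.47 and 9.94 in the Cdh1-deficient ones. The lowest Cdh1-deficient value was close to Cdh1-intact array 3, while arrays 1 and 2 of that group lay far below. The difference of 0.87 (SE 0.28) was the largest of the group and rested on a single probe set. Wdr77, the partner of the arginine methyltransferase Prmt5 that prepares spliceosomal proteins, lay at 10.29, 10.21 and 10.70 in the Cdh1-intact leukaemias and 11.15, 11.05 and 11.03 in the Cdh1-deficient ones, with a difference of 0.68 (SE 0.15). Bcas2, a subunit of a core spliceosome complex, lay at 10.35, 10.55 and 10.47 in the Cdh1-intact leukaemias and 10.98, 10.85 and 10.97 in the Cdh1-deficient ones, with a difference of 0.48 (SE 0.10). For both genes the 3 Cdh1-deficient arrays lay close together and above the Cdh1-intact range, with array 1 as high as arrays 2 and 3.

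Sf3b4, a subunit of the splicing factor that recognises the branch point, had Cdh1-deficient values of 10.50, 10.52 and 10.50 against 10.15 to 10.29, a difference of 0.29 (SE 0.09). Its second probe set differed by 0.01 only. Wdr3, a factor of ribosomal RNA processing, went from 11.09 ± 0.20 to 11.43 ± 0.14 (SD, n = 3 each), a difference of 0.34 (SE 0.15) that was 0.23 without Cdh1-intact array 2. Fxr1, an RNA-binding protein of the fragile X family, lay at 10.15, 9.97 and 10.08 in the Cdh1-intact leukaemias and 10.12, 10.82 and 10.71 in the Cdh1-deficient ones. Here Cdh1-deficient array 1 lay among the Cdh1-intact arrays and arrays 2 and 3 stood apart from them, and the 3 other probe sets of Fxr1 differed by 0.63 to 0.92. Clk2, a kinase of splicing proteins, differed by 0.39 (SE 0.25), and the RNA-editing deaminase gene Adar by 0.27 (SE 0.15). Both had Cdh1-deficient array 1 within the Cdh1-intact range. Ilf2, which encodes a double-stranded RNA-binding complex subunit, and the mRNA export gene Chtop differed by 0.23 (SE 0.17) and 0.26 (SE 0.16), with overlapping groups. Ilf2 was at 0.09 without Cdh1-intact array 2 and Chtop at 0.12 without Cdh1-intact array 1.

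Promoter sequence was set beside these values because N-myc, the driver in both groups, binds the E-box CACGTG. The list was drawn up with the direction of its genes known, and the part of N-myc in that direction was not tested. The 250 bases upstream of RefSeq gene starts were searched on both strands (CACGTG reads alike on both), and 48 of the 55 genes had an entry. CACGTG was found for 7 of the 48 genes (14.6%), against 6.86% of all genes with an entry, 10.7% of those at or above the median level and 11.7% of the other chromosome 3 genes at or above that level. CCAAT, the NF-Y motif, was found for 43.8% of the members and 37.5% of all genes. It was found for 40.9% of genes at or above the median level and 40.1% of the other chromosome 3 genes there. For GGGCGG, a GC box, these shares were 66.7%, 35.4%, 65.6% and 60.3%. Some genes have several starts, and the members had 66. Per start the members had CACGTG in 10.6%, CCAAT in 31.8% and GGGCGG in 62.1%. Genes at or above the median level had 8.92%, 35.7% and 59.0%. The 4 windows below show the E-box (capitals) upstream of 3 members whose groups did not overlap and of Gnai3, whose mean was lower in Cdh1-deficient cells. They run 5′ to 3′ on the gene's strand.
Bcas2 (GRCm38.p6 chr3:103171570-103171635, plus strand): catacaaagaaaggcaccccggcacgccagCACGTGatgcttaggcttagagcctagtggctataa
Nras (GRCm38.p6 chr3:103058240-103058284, plus strand): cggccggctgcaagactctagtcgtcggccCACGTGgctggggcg
Prpf3 (GRCm38.p6 chr3:95855838-95855903, minus strand): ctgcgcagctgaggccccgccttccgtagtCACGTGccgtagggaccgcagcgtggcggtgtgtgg
Gnai3 (GRCm38.p6 chr3:108146336-108146401, minus strand): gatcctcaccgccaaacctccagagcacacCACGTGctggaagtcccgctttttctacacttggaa
The match ends 49 bases upstream of the start in Bcas2, 9 in Nras, 114 in Prpf3 and 213 in Gnai3. The other matches were in Clk2, Phc3 and Pkn2, whose groups overlapped, so the letters occur beside genes of both patterns. A match is not a measurement of binding.

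Of the genes of chromatin and transcription 13 of 14 had higher means (62.5% of all genes at or above the median level). Their median difference was 0.32, and in 8 the groups did not overlap (9.88%). Arnt, the shared partner of hypoxia-inducible factors and of the aryl hydrocarbon receptor, lay at 7.99, 8.10 and 8.09 in the Cdh1-intact leukaemias and 8.65, 8.90 and 9.20 in the Cdh1-deficient ones. The Cdh1-intact values lay close together and the whole Cdh1-deficient group lay above them, a difference of 0.86 (SE 0.16). Its 4 other probe sets differed by 0.24 to 0.39. Setdb1, a histone methyltransferase of lysine residues that silences retroelements, lay at 8.32, 8.68 and 8.77 in the Cdh1-intact leukaemias and 9.27, 9.29 and 9.19 in the Cdh1-deficient ones, a difference of 0.66 (SE 0.14). All Cdh1-deficient arrays were alike for this gene, but its 2 other, weaker probe sets differed by 0.01 and 0.22. Anp32e, a chaperone that removes the histone variant H2A.Z from chromatin, went from 11.99 ± 0.10 to 12.32 ± 0.10 (SD, n = 3 each), and its second probe set differed by 0.33 as well.

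Mef2d, a MADS-box transcription factor of B-cell and muscle genes, lay at 10.78, 9.63 and 10.68 in the Cdh1-intact leukaemias and 10.86, 10.98 and 11.11 in the Cdh1-deficient ones. The groups did not overlap, but Cdh1-intact array 2 carried much of the difference of 0.62 (SE 0.32), which was 0.25 without that array. Its 2 other probe sets differed by -0.10 and 0.08. Zzz3, a subunit of a histone acetyltransferase complex, lay at 10.11, 9.91 and 10.05 in the Cdh1-intact leukaemias and 10.19, 10.74 and 10.66 in the Cdh1-deficient ones. Arrays 2 and 3 of the Cdh1-deficient group stood high for this gene and array 1 lay just above the Cdh1-intact range. Actl6a, an actin-like subunit of the BAF chromatin remodelling complex, differed by 0.32 (SE 0.14), while its other probe sets differed by -0.32 and 0.56. The zinc finger gene Mynn differed by 0.56 (SE 0.26), with Cdh1-intact array 1 lowest at 6.55. The Mynn value was 0.28 without that array, 0.12 without probe sets shared between transcripts, and 0.28 when its probe sets were averaged. The LIM-only factor gene Lmo4 differed by 0.27 (SE 0.13). Phc3, a Polycomb protein, lay at 7.89, 8.08 and 7.89 in the Cdh1-intact leukaemias and 7.74, 8.59 and 8.66 in the Cdh1-deficient ones, so the groups overlapped at Cdh1-deficient array 1, the lowest of the 6. Trim33, a ubiquitin ligase of SMAD signalling, and the histone H2A.Z loading factor gene Vps72 differed by 0.28 (SE 0.21) and 0.21 (SE 0.14), Trim33 being at 0.45 without Cdh1-intact array 2. The general transcription factor gene Gtf2b differed by 0.14 (SE 0.10) and the lysine methyltransferase gene Setd7 by 0.20 (SE 0.33), both with overlapping groups. Setd7 was highest on Cdh1-intact array 2, at 9.93, and its difference was 0.54 without it. Skil, a repressor of TGF-beta signalling, was the only one of the 14 with a lower mean, at 7.98, 8.53 and 8.26 in the Cdh1-intact leukaemias and 8.13, 7.61 and 8.00 in the Cdh1-deficient ones. Its difference was -0.34 (SE 0.20), with Cdh1-intact array 2 highest and Cdh1-deficient array 2 lowest, and it was -0.20 without the former.

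Plk4, the kinase that starts centriole duplication, and Mnd1, a cofactor of strand exchange in recombination, both had groups that did not overlap. Such groups, with Cdh1-deficient higher, were found for 9.88% of all genes at or above the median level. Plk4 lay at 9.50, 9.84 and 10.17 in the Cdh1-intact leukaemias and 10.17, 10.41 and 10.58 in the Cdh1-deficient ones. Cdh1-deficient array 1 was nearly equal to Cdh1-intact array 3, and the difference was 0.55 (SE 0.21), with 0.30 and 0.43 for its other probe sets. Mnd1 lay at 8.22, 8.09 and 8.37 in the Cdh1-intact leukaemias and 8.61, 8.89 and 9.12 in the Cdh1-deficient ones, a difference of 0.65 (SE 0.16) on its single probe set. Arrays 2 and 3 of the Cdh1-deficient group were the highest for both genes. Mean levels of 7 proliferation genes were 10.89 on Cdh1-intact array 1, the lowest, and 11.40 to 11.66 on the other 5 arrays, and their part in these values was not tested.

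**Figure D3:**
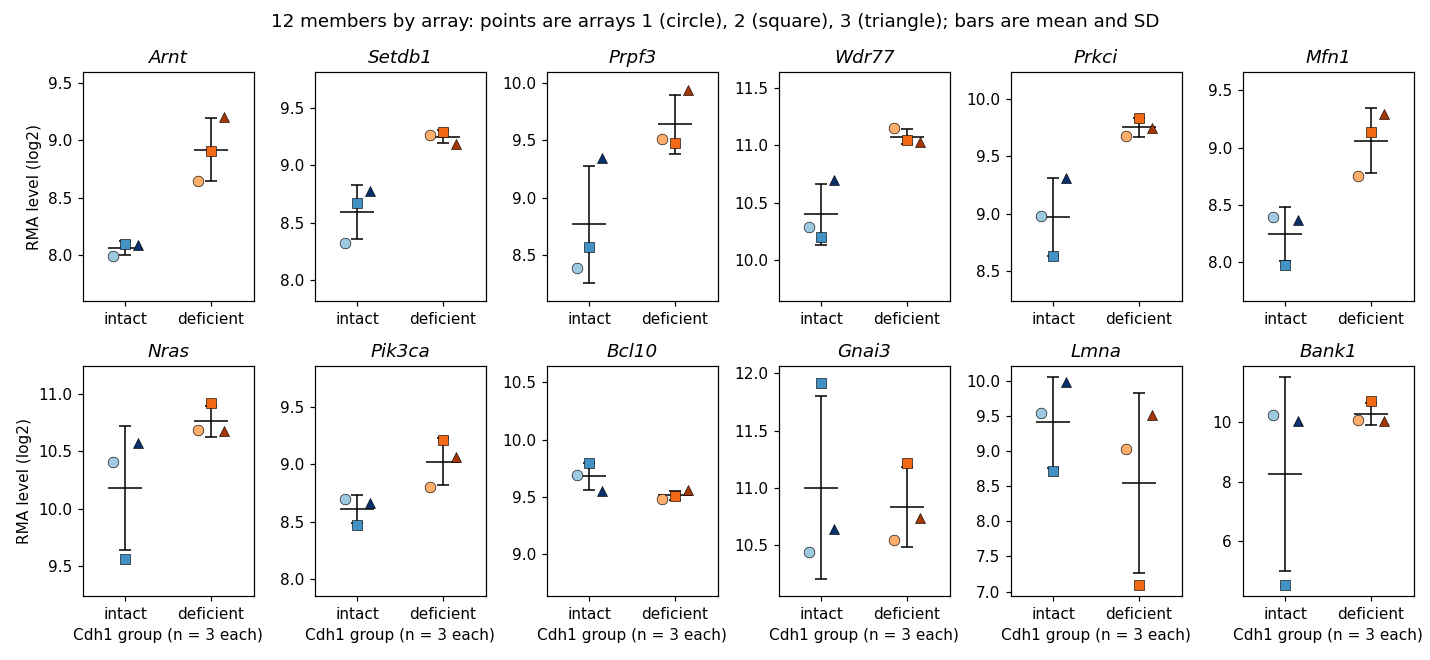
RMA log2 levels of 12 members by array (points) with the mean and SD of each Cdh1 group (bars, n = 3 each). In the upper row, Nras and Pik3ca the groups did not overlap, whereas in Bcl10, Gnai3, Lmna and Bank1 they did.

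The genes of signalling and cell death were mixed, with 9 of 13 higher (62.5% of all genes at or above the median level). Their median difference was 0.27, and in 4 the groups did not overlap (9.88%). Prkci, an atypical protein kinase C of cell polarity, lay at 8.98, 8.63 and 9.31 in the Cdh1-intact leukaemias and 9.67, 9.84 and 9.75 in the Cdh1-deficient ones. The Cdh1-deficient arrays lay close together above a spread-out Cdh1-intact group, a difference of 0.78 (SE 0.19), and a weaker probe set differed by 0.16. Nras, the RAS GTPase often mutated in leukaemia, lay at 10.41, 9.56 and 10.57 in the Cdh1-intact leukaemias and 10.69, 10.92 and 10.68 in the Cdh1-deficient ones. Its difference of 0.58 (SE 0.28) became 0.27 without Cdh1-intact array 2, the lowest array, and its other probe sets differed by 0.42 and 0.71. Pik3ca, the catalytic alpha subunit of class I phosphoinositide kinase, lay at 8.69, 8.48 and 8.66 in the Cdh1-intact leukaemias and 8.80, 9.21 and 9.06 in the Cdh1-deficient ones, a difference of 0.41 (SE 0.14). Array 1 was the lowest of the Cdh1-deficient arrays and lay just above the Cdh1-intact range. Pdcd10, an adaptor of germinal centre kinases, went from 11.53 ± 0.22 to 11.77 ± 0.05 (SD, n = 3 each), a difference of 0.24 (SE 0.14) that was 0.12 without Cdh1-intact array 2.

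Several signalling genes followed single arrays more than the groups. Bank1, a B-cell scaffold of antigen receptor signalling, lay at 10.24, 4.53 and 10.03 in the Cdh1-intact leukaemias and 10.07, 10.70 and 10.02 in the Cdh1-deficient ones. Only Cdh1-intact array 2, where B-lineage transcripts were low, stood apart, and the difference of 2.00 (SE 1.55) was 0.13 without it. Vav3, a guanine nucleotide exchange factor, lay at 4.00, 6.91 and 4.15 in the Cdh1-intact leukaemias and 3.72, 5.43 and 4.19 in the Cdh1-deficient ones, highest on Cdh1-intact array 2. Its difference was -0.57 (SE 0.89), and 0.37 without that array. Gnai3, an inhibitory G protein subunit, was likewise highest there, at 11.92 against 10.44 to 11.22 elsewhere, and its difference of -0.17 (SE 0.42) became 0.29 without it. Tlr2, a receptor for bacterial lipopeptides on myeloid cells, lay at 6.73, 4.64 and 5.90 in the Cdh1-intact leukaemias and 6.23, 7.36 and 6.09 in the Cdh1-deficient ones. Its extremes were on the arrays with the lowest and the highest neutrophil transcripts, and the difference was 0.80 (SE 0.61), or 0.25 without Cdh1-intact array 2.

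Bcl10, an adaptor that carries antigen receptor signals to NF-kappaB, lay at 9.69, 9.79 and 9.55 in the Cdh1-intact leukaemias and 9.48, 9.51 and 9.56 in the Cdh1-deficient ones. Its difference of -0.16 (SE 0.10) was small, its 3 other probe sets differed by -0.32 to -0.12, and Cdh1-deficient array 3 lay just above Cdh1-intact array 3. Without Cdh1-intact array 2 the difference was -0.11. The executioner caspase gene Casp6 differed by -0.25 (SE 0.25), or -0.16 without Cdh1-intact array 2. Arhgef2, an exchange factor bound to microtubules, differed by 0.40 (SE 0.18), but its 2 other probe sets by -0.08 and 0.10. The kinase gene Pkn2 differed by 0.27 (SE 0.25), a value of 0.03 without Cdh1-intact array 1. The RAS-related GTPase gene Rap1a differed by 0.12 (SE 0.19), or 0.28 without Cdh1-intact array 2. In Casp6, Arhgef2, Pkn2 and Rap1a the groups overlapped.

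Among genes of the cytoskeleton, of transport and of the cell surface 6 of 8 had higher means, and the median difference was 0.11. The groups did not overlap for 1, Celsr2. Of all genes at or above the median level 62.5% had higher means, and 9.88% had groups without overlap in that direction. Celsr2, an adhesion receptor of the cadherin superfamily in planar polarity, lay at 6.74, 6.68 and 7.04 in the Cdh1-intact leukaemias and 7.57, 7.60 and 7.51 in the Cdh1-deficient ones. The Cdh1-deficient arrays were nearly equal and lay above the Cdh1-intact range, a difference of 0.74 (SE 0.13), and a second, weaker probe set differed by 0.16. Sort1, a sorting receptor, lay at 6.81, 6.46 and 6.06 in the Cdh1-intact leukaemias and 6.57, 7.56 and 6.87 in the Cdh1-deficient ones, with Cdh1-deficient array 1 inside the Cdh1-intact range. The nuclear import receptor gene Kpna4 differed by 0.22 (SE 0.14) and the actin-capping gene Capza1 by 0.13 (SE 0.12). Ssr3, of the translocon-associated complex, and the tropomyosin gene Tpm3 differed by 0.09 (SE 0.11) and 0.09 (SE 0.11), and both differences were smaller than their SE. Tpm3 was at 0.02 without Cdh1-intact array 2. Lmna, which encodes A-type lamins of the nuclear envelope, lay at 9.54, 8.71 and 9.98 in the Cdh1-intact leukaemias and 9.03, 7.09 and 9.51 in the Cdh1-deficient ones. Cdh1-deficient array 2 was far below the rest, and the difference was -0.87 (SE 0.69). It was -0.14 without that array and -0.13 without probe sets shared between transcripts. The phosphatidylserine-binding annexin gene Anxa5 differed by -0.13 (SE 0.35), with both its lowest value (6.89) and its highest (8.20) in the Cdh1-deficient group, and was at 0.01 without Cdh1-intact array 2.

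Of the genes of metabolism, mitochondria and ubiquitin 8 of 8 had higher means (62.5% of all genes at or above the median level). Their median difference was 0.27, and in 2 the groups did not overlap (9.88%). Mfn1, a GTPase that fuses outer mitochondrial membranes, lay at 8.40, 7.98 and 8.37 in the Cdh1-intact leukaemias and 8.75, 9.14 and 9.30 in the Cdh1-deficient ones. The groups were separated by the gap from 8.40 to 8.75, the difference was 0.81 (SE 0.19), and its 2 other probe sets differed by 0.15 and 0.68. Acadm, the medium-chain acyl-CoA dehydrogenase of fatty acid oxidation, lay at 10.08, 9.82 and 9.93 in the Cdh1-intact leukaemias and 10.21, 10.39 and 10.15 in the Cdh1-deficient ones, a difference of 0.30 (SE 0.12). Gmps, the GMP synthetase of purine synthesis, lay at 11.27, 11.25 and 11.24 in the Cdh1-intact leukaemias and 11.19, 11.69 and 11.70 in the Cdh1-deficient ones. The Cdh1-intact arrays and Cdh1-deficient array 1 were nearly equal, and only Cdh1-deficient arrays 2 and 3 stood higher, which gave a difference of 0.27 (SE 0.16).

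Ube2d3, a ubiquitin-conjugating enzyme gene, showed the same order at the top of the scale, with 12.76 on Cdh1-deficient array 1 and 12.99 on array 3 against 12.64 to 12.78 in the Cdh1-intact group, and array 2 level with array 3. Txnip, an inhibitor of thioredoxin that responds to glucose, was lowest on Cdh1-intact array 2 (9.35), and its difference of 0.72 (SE 0.42) was 0.30 without that array. Hax1, a mitochondrial survival factor of neutrophils, was highest on that array (12.13), and its difference was 0.27 (SE 0.29), or 0.60 without it. The farnesyl diphosphate synthase gene Fdps and the hydroxyacyl-CoA dehydrogenase gene Hadh differed by 0.06 (SE 0.18) and 0.07 (SE 0.20), less than their SE, and by 0.01 and 0.14 without Cdh1-intact array 2. With the mean of all probe sets Fdps was at -0.04, the only one of the 55 genes to change sign in that setting.

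**Figure D4:**
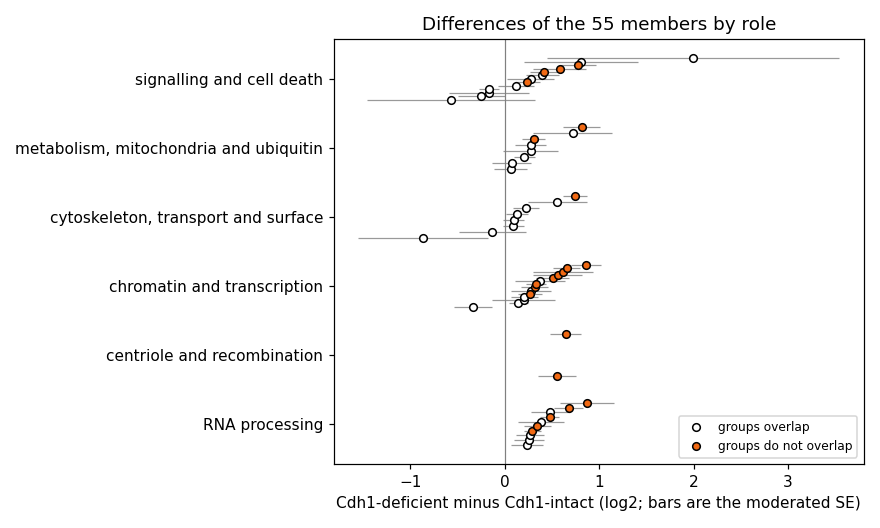
Difference of each member (Cdh1-deficient minus Cdh1-intact, log2, bars are the moderated SE) by role, with filled points where the groups did not overlap. Differences lay above 0 for 10 of 10 genes of RNA processing and 8 of 8 of metabolism, mitochondria and ubiquitin, and for 9 of 13 of signalling and cell death. Of all genes at or above the median level 62.5% lay above 0.

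Probe sets that had not been used for these genes were read from the same RNA. Of the 55 members 44 had further probe sets, 86 in all. Of the 86, 62 (72.1%) had a higher mean in Cdh1-deficient cells, with a median difference of 0.15. For the 59 whose level was at or above the median of gene means the count was 49 (83.1%), with a median difference of 0.23. Over all genes, each by its chosen probe set, the shares were 50.9%, and 62.5% at or above the median level. The median deviations of the 59 were -0.10, -0.13 and -0.05 in the Cdh1-intact leukaemias and 0.01, 0.09 and 0.10 in the Cdh1-deficient ones. This is the same order of groups as for the chosen probe sets. These genes were listed with their differences known, so nothing is read from the shares or the order. The choice of probe set set the size for many genes. With the mean of all probe sets the difference moved by over 1.5 times for 19 members. Setdb1 was then at 0.30, Arnt at 0.41, Prkci at 0.47, Celsr2 at 0.45, Mef2d at 0.20, Arhgef2 at 0.14, Phc3 at 0.15, Sort1 at 0.15 and Sf3b4 at 0.15, while Fxr1 was at 0.73. Mfn1, at 0.55, moved by slightly less. Without probe sets shared between transcripts 50 members were left and 10 moved by that much, among them Setdb1 to 0.22, Prkci to 0.16, Bcas2 to 0.26, Plk4 to 0.30 and Arhgef2 to 0.10. Single arrays also set the size. Without Cdh1-deficient array 2, 17 members moved by over 1.5 times, among them Sort1 to 0.28, Clk2 to 0.25, Tlr2 to 0.40 and Phc3 to 0.24. Phc3 was at 0.67 without Cdh1-deficient array 1 and at 0.21 without array 3 of that group. Without Cdh1-intact array 1 Txnip was at 1.09 and Tlr2 at 1.29, and without Cdh1-intact array 3 Clk2 was at 0.19 and Sort1 at 0.36.

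By level within the list, the 27 members above the list's median level had 26 higher and a median of 0.27. The 28 others had 22 higher and a median of 0.38. Of all genes at or above the median over all genes 62.5% were higher. By mean level 54 of the 55 reached the median over all genes, Vav3 being the exception.

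The rest of chromosome 3 depended on level. Over all 858 measured genes outside the list the median difference was 0.05, with 531 higher, but many of these lay near the floor. Over the 392 at or above the median level it was 0.32, with 335 higher, or 85.5%, against 61.3% on the remaining chromosomes at the same level. The groups did not overlap, with Cdh1-deficient higher, for 122 of the 392 (9.88% of all genes at that level). The 4 of smallest p in each direction were fixed as examples. Higher were Pias3, a SUMO ligase gene, from 6.40 ± 0.10 to 7.18 ± 0.27 (SD, n = 3 each), Gfm1, a mitochondrial elongation factor gene, from 9.63 ± 0.07 to 10.10 ± 0.09 (SD, n = 3 each), the ubiquilin gene Ubqln4, from 9.29 ± 0.18 to 9.86 ± 0.06 (SD, n = 3 each), and Noct, a circadian phosphatase gene, from 8.65 ± 0.17 to 9.30 ± 0.17 (SD, n = 3 each). Lower were the ubiquitin ligase gene Trim2 at -0.77 (SE 0.16), the adhesion receptor gene Cd2 at -1.02 (SE 0.29), the neddylation gene Dcun1d1 at -0.39 (SE 0.12) and the cyclin L gene Ccnl1 at -0.57 (SE 0.20). With the mean of all probe sets Dcun1d1 was at 0.15. In these 8 genes the 3 arrays of one group lay apart from those of the other. A choice by smallest p favours such genes, so nothing is read from this. None passed the limma test after adjustment over all genes.

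The median difference between the groups lay above 0 along the whole gene order rather than in a stretch of it. The 392 genes were cut into 10 blocks of 39 or 40 consecutive genes, from the centromeric to the distal end, and the median difference was above 0 in 10 of 10 blocks, from 0.22 to 0.44. Cdh1-deficient array 2 had block medians from 0.08 to 0.33 and array 3 from 0.09 to 0.25. Array 1 ran from 0.00 to 0.09 and was highest in the sixth block, which holds Setdb1, Arnt, Prpf3, Anp32e, Sf3b4, Vps72 and Txnip. The Cdh1-intact arrays were below 0 in all 10 blocks. Over the 14 chromosomes not set aside, the median differences were 0.01 to 0.10. Cdh1-intact array 1 was below 0 there too, from -0.111 to -0.032. Cdh1-deficient array 1 ran from -0.014 to 0.028 there, and several of its block medians lay within that range. So for Cdh1-deficient array 1 a higher level along the whole gene order is not shown. Of the members, the 8 in the first block, from Mynn to Fxr1 and including Pik3ca, had a median difference of 0.45, the 7 in the sixth 0.66, and the 6 in the last, with Zzz3 and Acadm, 0.27. The lowest were 0.19 for the 4 in the eighth (Gnai3, Vav3, Sort1 and Celsr2) and 0.14 for the 4 in the ninth (Bank1, Casp6, Hadh and Ube2d3).

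**Figure D5:**
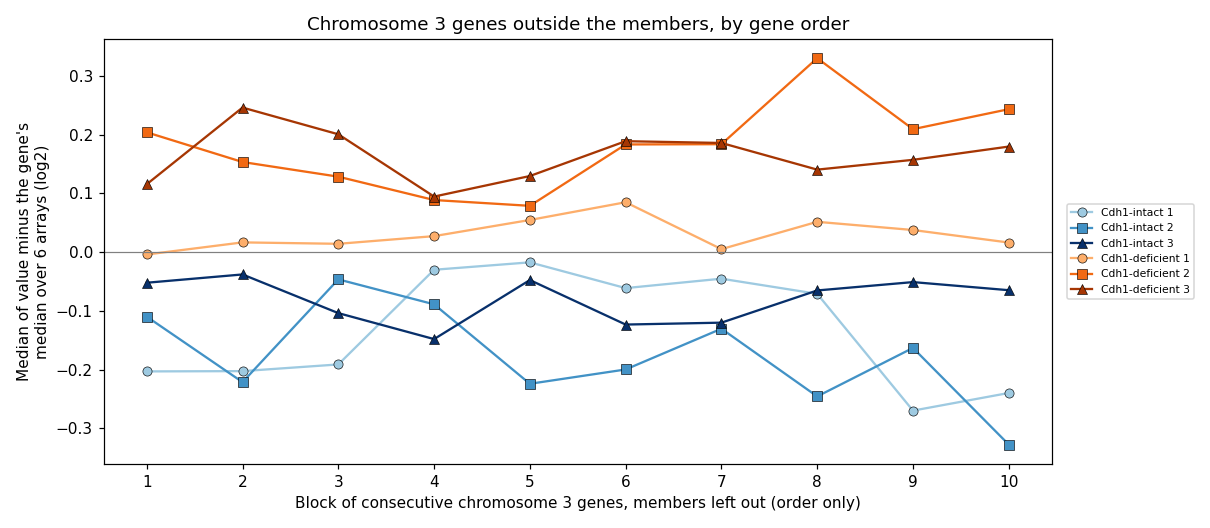
Median deviation from each gene's median over the 6 arrays (log2) for 10 blocks of consecutive chromosome 3 genes outside the list, 1 line per array. Lines of Cdh1-deficient arrays 2 and 3 lie above 0 in every block (0.08 to 0.33), array 1 lies near 0 (0.00 to 0.09), and the Cdh1-intact arrays lie below 0 (-0.33 to -0.02).

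Other chromosomes had other arrays standing apart. Chromosome 5 was the only other one of 20 on which all Cdh1-deficient arrays (0.13, 0.06 and 0.17) lay above all Cdh1-intact arrays (-0.19, -0.20 and -0.08), and there array 1 lay above array 2. On chromosomes 4 and 12 Cdh1-deficient array 3 alone was high (0.25 and 0.22), on chromosome 13 Cdh1-deficient array 2 was low (-0.27), and on chromosome 19 Cdh1-intact array 3 was low (-0.44). The chromosomes were compared as descriptions of these 6 leukaemias, and no test of a difference between chromosomes was run.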

How the data were processed

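Expression was measured on 6 one-colour Affymetrix arrays, 1 per mouse. Per the submitters' processing notes, the authors used RMA (no version given) to make the deposited log2 values. RMA makes the array distributions alike, so a change in total RNA per cell cannot be seen. Array medians lay between 5.07 and 5.13, and the number of arrays limits the precision. The table holds 45101 probe sets, of which 34945 carried 1 gene symbol in the platform annotation of 2016. They gave 18193 genes, each by its probe set of highest mean. Chromosomes and gene order came from the RefSeq table of GRCm38.p6, which matched 34741 of those probe sets by gene ID, and promoters from RefSeq sequences of that build. No label names a build for the arrays.

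Groups follow the sample titles. Differences are Cdh1-deficient minus Cdh1-intact from limma 3.58.1 (lmFit, then eBayes, two-sided; R 4.3.3), with the moderated standard error (SE) and Benjamini-Hochberg adjustment over all 18193 genes at 0.05. The limma step was tested on simulated data. Mice were taken as the replicates. The members and lists were chosen with earlier results of these data known. All members were named, with 4 further chromosome 3 genes in each direction by smallest p among those at or above the median level of 5.97, Fzr1, and the marker lists for B-lineage, T and NK, neutrophil, erythroid, macrophage and proliferating cells. Of the last lists, 6 erythroid genes averaged 4.77 to 6.55 and 7 macrophage genes 4.98 to 7.40, both highest on Cdh1-intact array 1. Mycn, also to be named, averaged 13.35 ± 0.20 without and 13.62 ± 0.12 with Cdh1 deficiency (SD, n = 3 each). The alternatives were other normalizations, filters on level, probe set choices and variance models, a replicate block, and each array left out in turn.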

Additional observations from a re-analysis of the deposited data

How the results depend on the processing

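With all 15 alternatives the members' median difference stayed above 0, between 0.24 and 0.38, and 43 of 50 to 51 of 55 members were higher. Among these, trend and robust estimation, the replicate block and the filters on level leave each member's difference unchanged. Those settings are therefore no check on its size or sign. Leaving out 1 array gave medians from 0.27 to 0.38, the highest without Cdh1-deficient array 1. The number of genes with an adjusted limma p under 0.05 stayed at 0 in each alternative at that threshold, each left-out array included, and at 0.1, and 1000 genes had an unadjusted p under 0.05. Deviations of same-numbered arrays correlated at -0.14, 0.01 and 0.04, and those of differently numbered arrays at -0.213 to 0.218. With 3 arrays per group these values cannot tell whether same-numbered arrays were paired. With the replicate number as a block 0 genes were called. The members' median was 0.29 as before, since a block leaves the differences unchanged in this balanced design. Over the chromosome 3 genes outside the list, the median of 0.05 was -0.0035 when arrays were centred on genes outside chromosomes 3 and 5. That setting shifts all genes alike, and the median over all genes went from 0.0034 to -0.054. For the chromosome 3 genes outside the list, the median was 0.19 and 0.32 without genes below the lowest quartile and below the median of levels. Without shared-target probe sets it was 0.0388. Leaving out 1 array gave 0.0550 to 0.0711. With no filter on level, the chromosome 3 deviations shrank to -0.00874 and -0.0349 on Cdh1-intact arrays 1 and 2, and to 0.0333 and 0.0295 on Cdh1-deficient arrays 2 and 3. Here the added genes are those of low level.

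Of 819 values of single members, those from trend and robust estimation, the replicate block and the filters on level could not move. Single members changed sign in 11 of the 819 values. A further 14 kept their sign but moved by more than 1 SD between replicates, 7 of them with the mean of all probe sets, 6 without shared-target probe sets (Bcl10 then at -0.321) and Sf3b4 at 0.235 when arrays were centred on genes outside chromosomes 3 and 5. Leaving out 1 array moved 7 to 21 of the 55 by over 1.5 times, most without Cdh1-intact array 2. Fdps was at -0.0448 when probe sets were averaged and Tpm3 at -0.0454 without shared-target probe sets, and Anxa5 was at 0.00412 with array weights. The others came from leaving out 1 array. Over those 6 settings Fdps ran from -0.0939 (without Cdh1-deficient array 1) to 0.210, Hadh from -0.110 (Cdh1-intact array 1 left out) through -0.0302 (Cdh1-deficient array 3 left out) to 0.188, and Setd7 from -0.0102 (without Cdh1-intact array 3) to 0.545. Anxa5 ran from -0.418 to 0.235 (Cdh1-deficient array 1 left out) and was at 0.00594 with Cdh1-intact array 2 left out. Gnai3 ran from -0.446 to 0.291 and Vav3 from -1.08 to 0.374, the last 2 highest without Cdh1-intact array 2. The cause was not tested. The data hold no measure of DNA copy number or of clonality, and 1 array per mouse and 3 mice per group limit the precision.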
